A study of Mus musculus with 7 samples.

Results

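Every amino acid enters a protein only after it has been joined to its transfer RNA, and the genes of that step were followed here in dendritic cells sorted by maturation. Aminoacyl-tRNA synthetases are the enzymes that make this join, 1 enzyme for almost every amino acid. Translation in the cytosol and translation inside mitochondria draw on separate sets of them, encoded by different nuclear genes, and mitochondrial enzymes mostly carry a symbol that ends in 2. Some synthetases are shared: the glycine and lysine enzymes serve both compartments from a single gene. Mitochondria of mammals have no glutaminyl enzyme. There Ears2 first loads glutamate onto the glutamine tRNA, and the amidotransferase GatCAB, made of the products of Qrsl1, Gatb and Gatc, turns it into glutamine with an amide group taken from free glutamine. Many cytosolic synthetase genes are known targets of Atf4, the transcription factor of the amino acid response, and their products are among the proteins that growing cells make in bulk.

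The members were the genes that the deposited table annotates with the KEGG pathway of aminoacyl-tRNA biosynthesis. That annotation was held by 44 of 28666 genes, of which 6622 carried any KEGG pathway, and 0 genes encoded by mitochondrial DNA held it. By role they were 20 cytosolic synthetases, 17 mitochondrial synthetases and 6 enzymes that act on a charged tRNA or its precursor. The last gene, Tarsl2, encodes a threonyl enzyme of the cytosolic type despite its final 2 and was kept apart. All 44 passed the filter on low counts.

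The libraries came from bone marrow derived dendritic cells (BMDCs) of female C57BL/6 mice aged 6 to 8 weeks. Marrow cells were grown for 7 days with GM-CSF at 20 ng/mL and IL-4 at 10 ng/mL, then shared a Transwell with the mouse colon carcinoma line MC38. DON, a glutamine analog that blocks enzymes that use glutamine, was given for 24 h; a legend of the study names DMSO or DON at 5 μM, and the labels do not say which of these a library received. The study describes DON cultures with 2 mM glutamine and DMSO cultures with less. Flow sorting gave 3 libraries of immature and 4 libraries of mature cells, and the markers of the sort are not given in the sources used here. Glutamine supply and maturation were the subject of the study, and the comparison below asks how the genes of tRNA charging differ between the sorted states. The methods of the study speak in general of independent biological experiments, but nothing ties a library to its own culture or animal, so p-values measure the spread between these libraries, which may be technical.

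For each gene the authors deposited raw counts and FPKM, which divides the counts by gene length and library total. Total counts were 61296014, 57359581 and 67973086 in immature replicates 1 to 3 and 62285010, 61817255, 54846746 and 60481142 in mature replicates 1 to 4. The counts were tested with edgeR's quasi-likelihood test on 17461 genes, with p-values adjusted by the Benjamini-Hochberg method over all of them. CPM express the count relative to the TMM-scaled library total and compare libraries for 1 gene. Levels of different genes are compared only in FPKM. The fold change is given on the log2 scale, mature over immature, with its standard error (SE). A gene passed the study's criteria when its fold was 2 or more in either direction (1 on the log2 scale) with an adjusted p under 0.05.

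Marker genes separated the groups. Ccr7, the chemokine receptor of migrating dendritic cells, stood at 90.9, 92 and 86.5 FPKM in immature and 1152, 1151, 1283 and 1147 FPKM in mature replicates. The costimulatory gene Cd86 stood at 9.69, 9.89 and 9.04 FPKM in immature and 94.9, 119, 91.5 and 119.9 FPKM in mature replicates. Of 8 dendritic cell markers 5 rose past the criteria (Flt3, Zbtb46, Cd80, Cd86 and Ccr7), and Itgax, which encodes CD11c, was the 1 marker lower at an adjusted p under 0.05. In mouse tissues the study counts mature dendritic cells by CD80 and CD86. If the sort used the same proteins, the difference in Cd80 and Cd86 may follow from the sort itself. The 5 macrophage markers all fell past the criteria. They summed to 390, 367 and 365 FPKM in immature replicates 1 to 3 and to 96.2, 107, 116 and 121 FPKM in mature replicates 1 to 4, with Cd14 the most abundant in every library. These sorted groups thus differed in macrophage genes as well, and the part of that difference in the results below was not tested.

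Several mature libraries stood apart. The median chi-square per gene between libraries of a group, 0.455 under sampling noise alone, was 3.83 to 4.54 between immature libraries, 4.26 to 5.27 among mature replicates 1, 2 and 4, and 17.7 to 25.6 between mature replicate 3 and the others. All 8 heart muscle markers were higher in the mature group, but Myh6, Mb and Ckm in mature replicate 1 lay within or below their immature range. The sum of the 8 was 2.08, 2.16 and 2.17 FPKM in immature replicates, 12.2 FPKM in mature replicate 1, of which Tnni3 made up 11.2 FPKM, and 258, 271 and 257 FPKM in mature replicates 2 to 4. Mb, which encodes myoglobin, was the most abundant of the 8 at 71.1, 69.8 and 70.9 FPKM in mature replicates 2 to 4, and Myl2 was at 0 in every immature library and at 0.15 FPKM in mature replicate 1. The 4 kidney markers summed to 187 FPKM in mature replicate 2, led by Kap at 171 FPKM, and to 0.08 FPKM or less in every other library. Neutrophil, lymphocyte and erythroid markers summed to at most 3.65, 0.46 and 2.16 FPKM in a library. At these low levels S100a8 was lower past the criteria (log2 fold change -1.33, edgeR adjusted p = 0.0446), and Hbb-bs (3.60, adjusted p = 0.0486) and Hba-a1 (3.97, adjusted p = 0.0362) were higher. The 4 epithelial markers summed to 12.9 to 18.3 FPKM with no split between the groups, and Cdh1 led them in every library. Among them Epcam was higher past the criteria, with 0.07, 0.08 and 0.16 FPKM in immature and 0.67, 0.72, 0.51 and 0.31 FPKM in mature replicates (log2 fold change 2.24, edgeR adjusted p = 0.00436). The part of these genes in the results was not tested. The part of the muscle and kidney transcripts in the results was not tested as such. Results are also given with mature replicate 1 as the only mature library, and without mature replicates 1 and 3. The latter fit keeps the heart markers of mature replicates 2 and 4 and the kidney markers of mature replicate 2. It is therefore no check on those transcripts.

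Cytosolic synthetase genes were lower in mature BMDCs, almost as a set. Their summed level was 453, 463 and 433 FPKM in immature replicates 1 to 3 and 307, 303, 292 and 319.7 FPKM in mature replicates 1 to 4. Every mature library lay below every immature one, and the mean fell from 449.6 ± 15.5 FPKM over 3 libraries to 305 ± 11.4 FPKM over 4 (SD), a log2 ratio of -0.56. In bulk RNA of sorted cells, a lower level in each cell and a lower share of cells that express a gene cannot be told apart.

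Of the 20 cytosolic genes 19 were lower at an adjusted p under 0.05 in edgeR, a share of 95.0% where all genes tested gave 22.9%. None was higher at that threshold (23.2% of all genes tested), and none was higher at an unadjusted p under 0.05 in edgeR or DESeq2; limma without a filter gave 1 at that unadjusted p and 0 after adjustment. For those 19 genes every mature library was below every immature one, as for 26.7% of all genes tested; mature libraries lay wholly above for 0 cytosolic genes and for 25.4% of all. The median log2 fold change of the 20 genes was -0.73, and that of all genes tested was 0.06. Past the stricter criteria were 4 cytosolic genes, all lower, where 9.95% of all genes tested were lower and 13.2% higher by the same criteria. Without mature replicates 1 and 3 the fit still gave 19 lower genes at the adjusted p, with 2 past the criteria, and with mature replicate 1 as the only mature library it gave 19 and 1, though the spread in that fit came from the immature libraries alone and it is no replicated test of mature cells. Without mature replicate 3 alone 2 genes passed the criteria, so the count of 4 rested in part on that library. It also rested on the scaling, since edgeR with total counts gave 0 such genes. The limma fits, which differ in test, unit and an added constant at once, gave 1 on TPM (Eprs) and 0 in all 4 settings on FPKM.

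**Figure D1:**
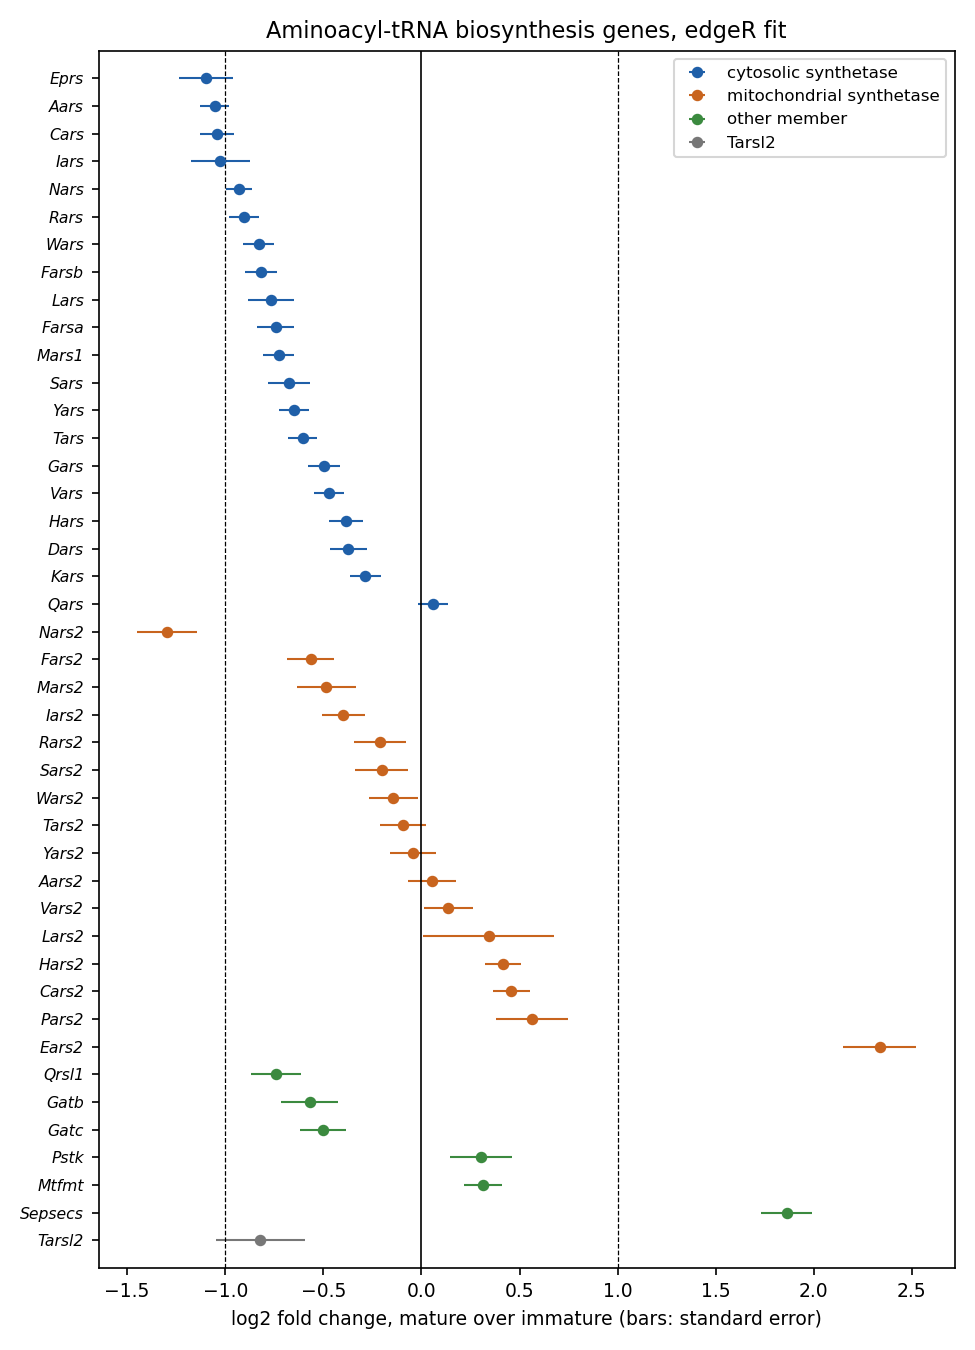
Log2 fold changes of genes of aminoacyl-tRNA biosynthesis, mature over immature BMDCs, with standard errors as bars, dashed lines at the fold criterion and colors for the roles. The cytosolic synthetases sit to the left of 0 except Qars at 0.06, while the mitochondrial synthetases spread from -1.29 for Nars2 to 2.33 for Ears2.

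Eprs, Aars, Cars and Iars were the cytosolic genes past the criteria. Eprs (ENSMUSG00000026615, chromosome 1 from 185363044 to 185428360) encodes a fused enzyme that charges both glutamate and proline. It had 173, 166 and 155 CPM in immature replicates 1 to 3 and 84.1, 80.4, 57.2 and 85.1 CPM in mature replicates 1 to 4. All mature values were below all immature values, and replicate 3 was the lowest of them by a wide gap. The mean was 164 ± 9.26 CPM over the 3 immature and 76.7 ± 13.2 CPM over the 4 mature libraries (SD), a log2 shift of -1.10 (SE 0.14, edgeR adjusted p = 0.000237). Without mature replicate 3 the log2 fold change was -0.96 (edgeR adjusted p = 5.63e-07), short of the fold criterion, and over all alternatives the adjusted p ran from 8.46e-11 to 0.00467.

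Aars (ENSMUSG00000031960, chromosome 8 from 111033144 to 111046743), the alanine enzyme, had the largest F statistic of the cytosolic group. Its values were 249.7, 257 and 244 CPM in immature and 124, 112, 120.1 and 126 CPM in mature replicates. Both groups were tight and lay far apart. The mean was 250.1 ± 6.34 CPM over the 3 immature and 120.5 ± 6.33 CPM over the 4 mature libraries (SD), a log2 shift of -1.05 (SE 0.07, edgeR adjusted p = 7.11e-06). With total counts in place of TMM its log2 fold change was -0.95 (edgeR adjusted p = 2.11e-05), short of the fold criterion. The cysteine enzyme Cars (ENSMUSG00000010755, chromosome 7 from 143557230 to 143600090) had 67.8, 70.0 and 64.9 CPM in immature and 31.6, 29.8, 34.9 and 34.9 CPM in mature replicates. Its groups did not overlap either, with a log2 shift of -1.04 (SE 0.09, edgeR adjusted p = 1.99e-05). Its fold rested narrowly on the criterion, since without mature replicate 2 the log2 fold change was -0.99 (edgeR adjusted p = 9.41e-05; range over the alternatives 3.14e-23 to 0.00108).

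Iars (ENSMUSG00000037851, chromosome 13 from 49682100 to 49734267), which charges isoleucine, had 116, 106 and 115 CPM in immature and 58.7, 59.3, 39.4 and 63.1 CPM in mature replicates. As with Eprs, mature replicate 3 held the lowest value. The difference over all libraries was a log2 shift of -1.02 (SE 0.15, edgeR adjusted p = 0.00063), and without mature replicate 3 the log2 fold change was -0.87 (edgeR adjusted p = 9.73e-07; range over the alternatives 3.73e-08 to 0.00938).

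Nars and Rars followed Aars in the order of F statistics without reaching the fold criterion. Nars (ENSMUSG00000024587, chromosome 18 from 64499647 to 64516652) makes asparaginyl-tRNA, and it had 257, 249 and 249 CPM in immature and 136, 129.7, 129 and 135 CPM in mature replicates. Mature replicate 3 was no exception here. The groups differed by a log2 shift of -0.93 (SE 0.07, edgeR adjusted p = 8.21e-06). Rars (ENSMUSG00000018848, chromosome 11 from 35808381 to 35834506), the arginine enzyme, had 81.4, 82.3 and 79.2 CPM in immature and 45.7, 40.4, 44.1 and 42.7 CPM in mature replicates, again without overlap, with a log2 shift of -0.91 (SE 0.07, edgeR adjusted p = 1.95e-05).

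Wars (ENSMUSG00000021266, chromosome 12 from 108860030 to 108894174), the tryptophan enzyme, is also known as a gene that interferon gamma induces. It had 217, 209.9 and 206 CPM in immature and 115, 110.1, 120.0 and 130.0 CPM in mature replicates. Mature cells were the lower group for this gene too, with a log2 shift of -0.83 (SE 0.08, edgeR adjusted p = 4.73e-05). The table places Wdr25 and 5033424D13Rik on the opposite strand over part of Wars, and whether the counting used strand is not given in the sources used here. Of 7 interferon gamma target genes listed beside Wars, 3 were higher at an adjusted p under 0.05, 0 were lower and 4 did not pass, where 23.2% of all genes tested were higher and 22.9% lower. The higher genes were Irf1 (log2 fold change 0.64, edgeR adjusted p = 0.00106), Gbp2 (0.40, adjusted p = 0.00247) and Socs1 (0.81, adjusted p = 0.00975), a transcription factor, a guanylate-binding protein and a brake on cytokine signaling. Wars and these 3 genes differed in direction, which says nothing of the other 4.

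Qars (ENSMUSG00000032604, chromosome 9 from 108507706 to 108515941) was the cytosolic exception. It charges glutamine in the cytosol. The immature libraries had 170.4, 178 and 172 CPM and the mature libraries 172, 175, 180.5 and 196 CPM. The groups overlapped, and the means of 174 ± 4.2 CPM (SD, n = 3) and 181 ± 10.8 CPM (SD, n = 4) differed by less than the spread among mature libraries (log2 fold change 0.06, SE 0.08, edgeR adjusted p = 0.566). A miss of the threshold does not show that Qars was equal in both states.

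Gars (ENSMUSG00000029777, chromosome 6 from 55038007 to 55079500), the glycine enzyme of both compartments, had the highest mean level of the members over all 7 libraries, at 43.5 FPKM. In CPM it had 172, 189 and 175 in immature and 121, 119, 136 and 131 in mature replicates. Mature libraries lay below, with a log2 shift of -0.50 (SE 0.08, edgeR adjusted p = 0.00108). Kars, the lysine enzyme that also serves both compartments, had the smallest of the 19 falls at -0.29 (edgeR adjusted p = 0.0164), and the call was lost without immature replicate 3 (log2 fold change -0.26, edgeR adjusted p = 0.0766; range over the alternatives 0.000478 to 0.0860). The other cytosolic genes past the adjusted p were Farsb (-0.82) and Farsa (-0.74), the paired subunits of the phenylalanine enzyme, Lars for leucine (-0.77), Mars1 for methionine (-0.73), Sars for serine (-0.67), Yars for tyrosine (-0.65), Tars for threonine (-0.60), Vars for valine (-0.47), Hars for histidine (-0.38) and Dars for aspartate (-0.37). Their edgeR adjusted p-values ran from 5.51e-05 for Farsb to 0.0114 for Dars. Hars and Hars2 overlap by 198 bases on opposite strands in the table, and reads of that stretch can be assigned to either if strand was not used.

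Levels spread widely inside the cytosolic group. Mean levels over all 7 libraries ran from 43.5 FPKM for Gars through 41.7 for Wars, 38.2 for Nars and 35.9 for Sars to 5.72 FPKM for Eprs, with a median of 14.7 FPKM. This order depends on the gene lengths used in FPKM. Eprs has 18102 exon bases in the GENCODE M21 annotation and Gars 3119. Their counts in immature replicate 1 were 10156 and 10082. In the immature libraries Wars was highest, at 53.8 ± 2.48 FPKM (SD, n = 3), and it lay above Nars at 50.8 ± 1.70 and Gars at 50.4 ± 3.42 by about as much as the spread. In mature libraries Gars led with 38.4 ± 1.20 FPKM (SD, n = 4), and Wars with 32.6 ± 2.34 and Sars with 29.7 ± 2.43 came next. Qars moved from 23.2 ± 0.962 FPKM (SD, n = 3) to 26.1 ± 1.81 FPKM (SD, n = 4), close behind Nars at 28.8 ± 1.78 FPKM in mature cells.

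**Figure D2:**
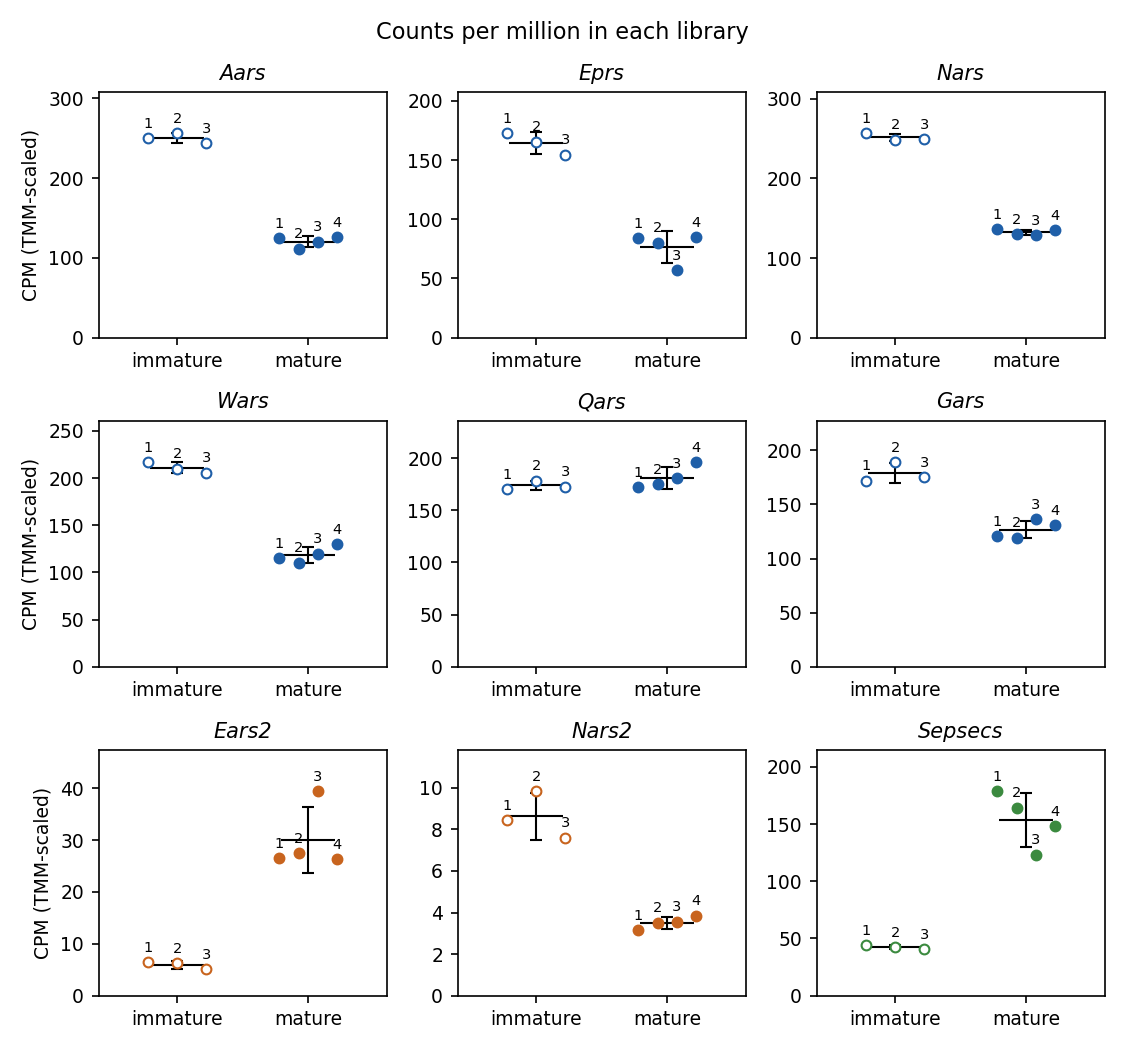
TMM-scaled CPM of 9 genes in each library, open circles for immature and filled circles for mature BMDCs, numbered by replicate, with the group mean and SD as bars. Aars, Eprs, Nars, Wars, Gars and Nars2 are lower in every mature library, Ears2 and Sepsecs are higher in every mature library, and the groups overlap for Qars.

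Part of the cytosolic enzymes work inside the multisynthetase complex, an assembly of synthetases held together by scaffold proteins. Of its 8 enzymes (Eprs, Lars, Iars, Mars1, Qars, Rars, Kars and Dars) 7 were lower at an adjusted p under 0.05, with a median log2 fold change of -0.75. All 12 free cytosolic genes were lower at that threshold, with a median of -0.71. Over all genes tested 22.9% were lower at it. The medians of complex and free enzymes thus lay close together, and their difference was not tested. The 3 scaffold genes did not share a direction. Aimp1 rose, with 47.5, 49 and 47.9 CPM in immature and 65.9, 58.5, 103 and 67.8 CPM in mature replicates (log2 fold change 0.62, edgeR adjusted p = 0.0229). It was highest in mature replicate 3, and the call was lost without any 1 immature replicate (edgeR adjusted p = 0.0674 to 0.0734). Eef1e1 fell (log2 fold change -0.46, edgeR adjusted p = 0.0193), a call lost without immature replicate 3 (adjusted p = 0.0870) or mature replicate 4 (adjusted p = 0.0529), and Aimp2 did not pass. Synthetases also fall into a pair of structural classes. The 9 cytosolic genes of class I had a median log2 fold change of -0.77 with 8 lower at the adjusted p, and the 10 of class II had a median of -0.64 with 10 lower.

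Mitochondrial synthetase genes took no common direction. Of the 17 genes 4 were higher and 4 lower at an adjusted p under 0.05, shares of 23.5% each that were near those of all genes tested. The median log2 fold change was -0.09, a value that turned positive with total counts in place of TMM (0.01) and with limma on log2(FPKM + 1), which tested 15 of the 17 (0.05). Their summed level was 44.8, 47.5 and 44.7 FPKM in immature replicates 1 to 3 and 53.8, 52.3, 50.1 and 50.1 FPKM in mature replicates 1 to 4. The sum lay higher in every mature library (log2 ratio 0.18), and most of that came from a single gene: without Ears2 the sum was 43.7, 46.4 and 43.9 FPKM against 48.8, 47.1, 43.3 and 45.3 FPKM, with overlapping groups and a log2 ratio of 0.05. After rescaling to TPM the sum of all 17 was lowest in mature replicate 3, at 131 TPM, below the immature values of 135, 142 and 136 TPM.

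Ears2 (ENSMUSG00000030871, chromosome 7 from 122037213 to 122067070), the mitochondrial glutamate enzyme, showed the largest change of all 44 genes. It had 6.46, 6.31 and 5.05 CPM in immature and 26.5, 27.5, 39.5 and 26.4 CPM in mature replicates. Mature replicate 3 was the highest, and the other mature values were close together and far above the immature ones. The mean was 5.94 ± 0.772 CPM over the 3 immature and 30.0 ± 6.37 CPM over the 4 mature libraries (SD), a log2 shift of 2.33 (SE 0.18, edgeR adjusted p = 1.46e-05), a 5.04-fold rise. Heart markers summed to 12.2 FPKM in mature replicate 1 and to 258, 271 and 257 FPKM in mature replicates 2 to 4. The part of the muscle transcripts in the Ears2 values was not tested.

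Nars2 (ENSMUSG00000018995, chromosome 7 from 96951505 to 97064758), which charges asparagine in mitochondria, moved the opposite way. Its values were 8.45, 9.85 and 7.61 CPM in immature and 3.15, 3.51, 3.56 and 3.85 CPM in mature replicates. Counts were low, but no mature library reached the lowest immature one. The mean was 8.64 ± 1.13 CPM over the 3 immature and 3.52 ± 0.287 CPM over the 4 mature libraries (SD), a log2 shift of -1.29 (SE 0.15, edgeR adjusted p = 0.00016). The gene C230038L03Rik overlaps Nars2 by 382 bases on the opposite strand. Other members with opposite-strand overlaps included Cars (Gm15580, 556 bases), Farsb (Sgpp2, 2315 bases) and Fars2 (Gm48765, 72312 bases). The same held for Iars2 (Rab3gap2, 2034 bases) and Cars2 (Naxd, 984 bases). Ears2 and Nars2 were the mitochondrial genes past the criteria, 1 in each direction.

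Cars2 (ENSMUSG00000056228, chromosome 8 from 11513977 to 11550783), the mitochondrial cysteine enzyme, had 18.3, 20.5 and 19.4 CPM in immature and 26.6, 27.1, 28.6 and 24.4 CPM in mature replicates. It rose without overlap, by a log2 shift of 0.46 (SE 0.09, edgeR adjusted p = 0.00382). Hars2 (log2 fold change 0.41, edgeR adjusted p = 0.0059) and Pars2 (0.56, adjusted p = 0.0351), for histidine and proline, were the other mitochondrial genes higher at the adjusted p. The Pars2 call was lost without any 1 immature replicate or mature replicate 2 (edgeR adjusted p = 0.0531 to 0.122).

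Iars2 (ENSMUSG00000026618, chromosome 1 from 185284726 to 185329396), the isoleucine enzyme, led the mitochondrial group in immature libraries with 7.76 ± 0.428 FPKM (SD, n = 3). In mature libraries it had 6.37 ± 1.03 FPKM (SD, n = 4), and Hars2, at 6.80 ± 0.348 FPKM, lay above it by less than that spread. In CPM Iars2 had 73.3, 81 and 81.3 in immature and 62, 64.4, 48.9 and 63 in mature replicates. The lowest value was that of mature replicate 3. The difference was a log2 shift of -0.40 (SE 0.11, edgeR adjusted p = 0.0164), lost without immature replicate 2 (edgeR adjusted p = 0.0647) or 3 (0.0657); over all alternatives the adjusted p ran from 0.00159 to 0.178. Fars2 for phenylalanine (log2 fold change -0.56, edgeR adjusted p = 0.00495) and Mars2 for methionine (-0.48, adjusted p = 0.0294) were also lower. The Mars2 call was lost without immature replicate 1, 2 or 3 or mature replicate 2 or 4 (edgeR adjusted p = 0.0600 to 0.104). Without immature replicate 2 or 3 the count of lower mitochondrial genes was 2 in place of 4.

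The mitochondrial genes that did not pass the adjusted p included Rars2 (-0.21 on the log2 scale), Sars2 (-0.20), Wars2 (-0.14), Tars2 (-0.09), Yars2 (-0.04), Aars2 (0.05), Vars2 (0.14) and Lars2 (0.34). Lars2, the leucine enzyme, was singled out after its values were seen. It had 27.2, 23.9 and 27.7 CPM in immature and 59.2, 28.2, 20.1 and 25.6 CPM in mature replicates. Mature replicate 1 stood far above the other mature libraries, and without it the log2 fold change was -0.09 (edgeR adjusted p = 0.653; range over the alternatives 4.36e-05 to 0.654). Without mature replicate 3, Rars2 (log2 fold change -0.28, edgeR adjusted p = 0.0466) and Vars2 (0.24, adjusted p = 0.0449) passed the adjusted p. Yars2 changed sign without immature replicate 2, to 0.01. Tarsl2, the cytosolic-type threonine gene, was lower (log2 fold change -0.82, edgeR adjusted p = 0.0168). It stood at 6.2, 8.62, 4.05 and 6.14 CPM in mature replicates, and without mature replicate 2 its log2 fold change was -1.01 (edgeR adjusted p = 0.00460), past the criteria. Its call was lost without immature replicate 1 (adjusted p = 0.0564) or 3 (adjusted p = 0.0552).

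The glutamine branch of mitochondria split between its steps. Its first enzyme, Ears2, rose, while all 3 subunits of GatCAB fell at an adjusted p under 0.05. Over all genes tested 22.9% were lower and 23.2% higher at that threshold. Qrsl1 (ENSMUSG00000019863, chromosome 10 from 43874188 to 43901745) encodes the subunit that releases the amide group of glutamine, and it had 11.1, 12.9 and 11.6 CPM in immature and 7.44, 6.2, 7.19 and 7.55 CPM in mature replicates. No mature value reached the immature range, with a log2 shift of -0.74 (SE 0.13, edgeR adjusted p = 0.00144).

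Gatb (ENSMUSG00000028085, chromosome 3 from 85574119 to 85655622), the subunit that binds the tRNA, had 12, 13.6 and 10.6 CPM in immature and 6.76, 9.05, 8.51 and 8.16 CPM in mature replicates. It was lower by a log2 shift of -0.57 (SE 0.14, edgeR adjusted p = 0.0115). That call was lost without immature replicate 2 (log2 fold change -0.48, edgeR adjusted p = 0.0567; range over the alternatives 0.00312 to 0.0837), and Gatb lies opposite to Gm37240 over its whole length of 81504 bases. Gatc (ENSMUSG00000029536, chromosome 5 from 115333239 to 115341178), the small subunit that joins the others, had 23.9, 22.1 and 22.2 CPM in immature and 16.9, 14, 14.7 and 18.6 CPM in mature replicates, with a log2 shift of -0.50 (SE 0.12, edgeR adjusted p = 0.00823). The groups were separate for all 3 subunits.

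Selenocysteine is built on its tRNA from serine in a pair of steps. Pstk adds a phosphate, and Sepsecs then swaps it for selenium. Sepsecs (ENSMUSG00000029173, chromosome 5 from 52640087 to 52669708) had 43.9, 42.3 and 40.7 CPM in immature and 179, 164, 123 and 148 CPM in mature replicates. All mature libraries were far higher, with replicate 3 the lowest of them. The mean was 42.3 ± 1.58 CPM over the 3 immature and 154 ± 23.8 CPM over the 4 mature libraries (SD), a log2 shift of 1.86 (SE 0.13, edgeR adjusted p = 7.48e-06), a 3.63-fold rise. In mature libraries its 20.9 ± 4.01 FPKM (SD, n = 4) was the highest level of the 6 genes, while in immature libraries Gatc led with 11.1 ± 0.62 FPKM (SD, n = 3) against 5.32 ± 0.303 FPKM for Sepsecs. It was the 1 gene among them past the criteria.

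The kinase gene Pstk did not pass (log2 fold change 0.30, edgeR adjusted p = 0.147). Over all alternatives its adjusted p ran from 0.0454 to 0.621. Fgfr2 and Ikzf5 lie opposite to parts of Pstk. Eefsec, the elongation factor that carries selenocysteinyl-tRNA to the ribosome, had 13.4, 11.5 and 13.6 CPM in immature and 21.6, 25.3, 29.7 and 23.3 CPM in mature replicates. It rose, just short of the fold criterion, by a log2 shift of 0.96 (SE 0.13, edgeR adjusted p = 0.000422). Mtfmt, which formylates the initiator tRNA of mitochondria, was higher (log2 fold change 0.31, edgeR adjusted p = 0.0275), a call lost without immature replicate 1, 2 or 3 or mature replicate 2 (edgeR adjusted p = 0.0663 to 0.107). In those fits the count of the 6 genes higher at the adjusted p was 1 in place of 2. The summed level of the 6 genes was 27.3, 26.7 and 24.7 FPKM in immature and 43.3, 41.4, 32.1 and 39.9 FPKM in mature replicates (log2 ratio 0.58). Without Sepsecs it was 21.7, 21.3 and 19.7 FPKM against 18.6, 18.2, 16.5 and 19.6 FPKM, a log2 ratio of -0.20, so that the sum turned on that gene.

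Both compartments were then set against each other for each amino acid, by the log2 ratio of FPKM of the cytosolic to the mitochondrial enzyme in a library. The ratio does not depend on how libraries are scaled. Of 18 pairs the mean ratio was lower in mature cells in 17, and in 13 of these every mature library lay below every immature one. For single genes the latter held in 26.7% of all genes tested, and the share among other gene pairs was not measured. The pairs are not independent, since Eprs is paired with both Ears2 and Pars2, and Fars2 with both Farsa and Farsb. The median change was -0.63 on the log2 scale. With 3 libraries against 4, a two-sided exact permutation test over 35 labelings cannot go below p = 0.0571, the value of each pair without overlap, and p = 0.0735 after adjustment over the 18 pairs, so no pair could pass the threshold.

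The pair of Eprs and Ears2 had the widest shift. Its log2 ratio was 2.94, 2.91 and 3.12 in immature and -0.15, -0.27, -1.28 and -0.12 in mature replicates. On the FPKM scale Eprs was thus above Ears2 in immature cells and below it in every mature library, an order that depends on the gene lengths used in FPKM: in counts Eprs stayed above Ears2 in every library. The change between groups does not depend on those lengths. Cars and Cars2 went from 2.03, 1.91 and 1.88 in immature to 0.39, 0.27, 0.42 and 0.65 in mature replicates, a change in the mean of -1.50. The alanine pair, Aars and Aars2, went from 3.73, 3.68 and 3.76 in immature to 2.57, 2.55, 2.79 and 2.55 in mature replicates, a change of -1.11. Only the asparagine pair, among the 18, had a higher ratio in mature cells, with 5.61, 5.34 and 5.72 in immature and 6.13, 5.90, 5.86 and 5.83 in mature replicates. Both of its genes were lower in mature cells, Nars2 by more than Nars. Pairs with overlapping groups included Mars1 with Mars2 and both phenylalanine subunits with Fars2.

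**Figure D3:**
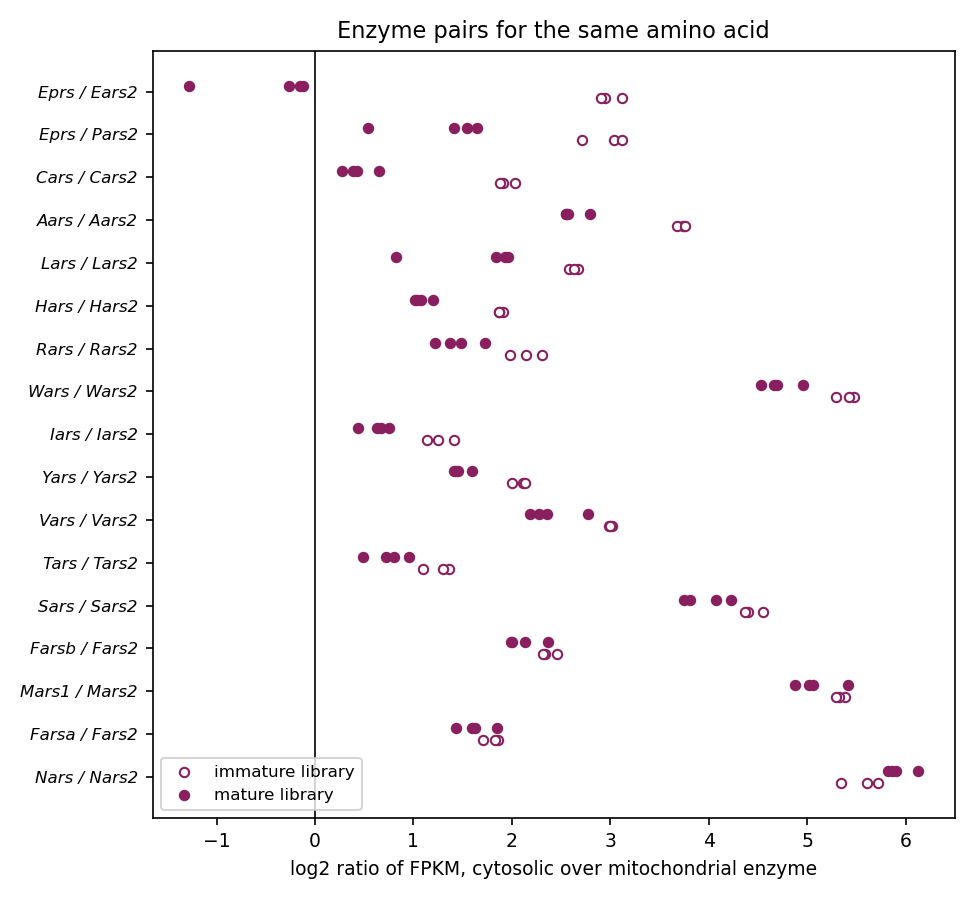
Log2 ratio of FPKM of the cytosolic over the mitochondrial enzyme for pairs that charge the same amino acid, open circles for the 3 immature and filled circles for the 4 mature libraries. Mature libraries lie to the left in 13 pairs without overlap, to the right for Nars with Nars2, and the pair of Eprs and Ears2 crosses 0.

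Mature replicate 3 deviated among the members as it did among all genes. Its log2 CPM differed by more than 0.25 from the mean of the other mature libraries in 14 of 44 members, against 5, 4 and 5 members for mature replicates 1, 2 and 4. The members lowest in it included Lars2 at -0.80, Tarsl2 at -0.77, Iars at -0.61 and Eprs at -0.54, and the highest was Ears2 at 0.56. Across the 44 genes this deviation had a Pearson r of -0.38 and a Spearman rho of -0.295 with the log2 of exon length in GENCODE M21, given as a description, since genes share libraries. For mature replicate 1 the values were 0.434 and 0.409. The deviations of the 4 libraries add to 0 for each gene, so these relations are not independent of each other. The median log2 difference of the 20 cytosolic genes from their immature mean was nonetheless alike in the 4 mature libraries, at -0.72, -0.78, -0.72 and -0.67.

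Genes that act next to tRNA charging gave a mixed picture. Of 4 genes for tRNA export and end processing, Xpot fell past the criteria, and Trnt1, Elac1 and Elac2 did not pass the adjusted p. Among all genes tested 9.95% were lower past the criteria and 22.9% at the adjusted p. Xpot encodes exportin-t, which carries tRNA out of the nucleus, and it had 123, 122 and 122 CPM in immature and 53.1, 55.8, 39.4 and 58.4 CPM in mature replicates, with a log2 shift of -1.25 (SE 0.13, edgeR adjusted p = 7.47e-05). Ankrd16, a cofactor of the alanine enzyme, rose (log2 fold change 0.57, edgeR adjusted p = 0.0106).

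Of 6 cytosolic elongation factor genes 3 were higher at the adjusted p and 0 lower, where all genes tested gave 23.2% and 22.9%. Besides Eefsec these were Eef1a1, which delivers charged tRNA to the ribosome (log2 fold change 0.41, edgeR adjusted p = 0.014), and Eef1b2, which recharges it with GTP (0.82, adjusted p = 0.0277). The Eef1a1 call was lost without immature replicate 1 (adjusted p = 0.0525) or 3 (0.0524) and the Eef1b2 call without any 1 immature replicate (adjusted p = 0.0715 to 0.0935). Of 4 mitochondrial elongation factor genes Gfm1 was lower (log2 fold change -0.69, edgeR adjusted p = 0.000117) and Gfm2, Tufm and Tsfm did not pass.

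The amino acid response list leaned the way of the synthetases. Of its 13 genes 8 were lower and 2 higher at an adjusted p under 0.05, with 6 lower past the criteria and a median log2 fold change of -0.73. Over all genes tested the shares were 22.9% lower and 23.2% higher at that threshold, and 9.95% lower past the criteria. The summed level of the list was 422, 433.5 and 397 FPKM in immature and 276, 262, 299 and 275 FPKM in mature replicates. Atf4 itself had 346, 363 and 339.6 CPM in immature and 194, 181, 287 and 186 CPM in mature replicates, highest among mature libraries in replicate 3, with a log2 shift of -0.72 (SE 0.16, edgeR adjusted p = 0.00576). The 5 genes past the criteria with the largest F statistics were Slc7a5, Trib3, Asns, Psat1 and Phgdh.

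Slc7a5, a transporter of large neutral amino acids, had 163, 158 and 164 CPM in immature and 37.9, 33.4, 34.1 and 43.1 CPM in mature replicates, a log2 shift of -2.12 (SE 0.10, edgeR adjusted p = 9.56e-07). Trib3, a pseudokinase that Atf4 induces, had 103, 108 and 95 CPM in immature and 15.7, 13.6, 18.3 and 20.4 CPM in mature replicates, a log2 shift of -2.58 (SE 0.14, edgeR adjusted p = 1.77e-06). These falls were larger than that of any cytosolic synthetase. Asns, which makes asparagine with an amide group from glutamine, had 73.3, 74.9 and 75.2 CPM in immature and 25.3, 20.9, 25.6 and 27.8 CPM in mature replicates, a log2 shift of -1.58 (SE 0.10, edgeR adjusted p = 4.9e-06). The serine synthesis genes Psat1 and Phgdh fell as well, by 1.44 and 1.81 on the log2 scale (edgeR adjusted p = 6.71e-05 and 0.000244), and the sixth gene was Chac1 (log2 fold change -1.69, edgeR adjusted p = 0.00106), at 3.52 CPM or less in every library. Shmt2 fell short of the fold criterion (log2 fold change -0.73, edgeR adjusted p = 8.39e-05). Against this direction went Sesn2 (log2 fold change 0.68, edgeR adjusted p = 6.29e-05) and the cystine transporter gene Slc7a11 (0.88, adjusted p = 0.000395), both higher.

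The Myc family, whose members bind E-boxes in many genes of translation, did not move as 1. Myc had 36.2, 35.7 and 35.1 CPM in immature and 7.88, 5.11, 6.98 and 7.64 CPM in mature replicates, with a log2 shift of -2.37 (SE 0.15, edgeR adjusted p = 4.02e-06). Mycl moved the other way, with 12.3, 14.5 and 11.8 CPM in immature and 87.8, 106, 94 and 126 CPM in mature replicates, a log2 shift of 3.01 (SE 0.15, edgeR adjusted p = 1.27e-06). Neither gene had overlapping groups. Max, the partner of both proteins, was slightly lower (log2 fold change -0.35, edgeR adjusted p = 0.0115), a call lost without immature replicate 2 (adjusted p = 0.0554). Of the 4 listed genes 3 passed the filter on low counts; Mycn did not.

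Promoter sequences were searched because the cytosolic genes moved together. RefSeq promoters of 300 bases on GRCm38.p6, from 250 before to 50 after the start, matched 32 of the 44 genes with 33 promoters. The words searched on both strands were TGATGNAA, the core of the C/EBP-ATF response element (CARE) that Atf4 binds, the E-box CACGTG, and TTCNNNGAA, the GAS element of Stat proteins, where N is any base. In member promoters no match overlapped another (0 overlaps). CARE was found in 5 of 13 cytosolic promoters (38.5%, Wilson 95% interval 17.7 to 64.5%), those of Aars, Gars, Iars, Tars and Yars, in 0 of 15 mitochondrial promoters (upper bound 20.4%) and in 3.97% of all 32851 promoters. The E-box was found in 4 of 13 cytosolic promoters (30.8%, interval 12.7 to 57.6%), those of Aars, Farsb, Iars and Tars, in 1 of 15 mitochondrial promoters, that of Ears2, and in 7.15% of all. GAS was found in the cytosolic promoters of Aars and Kars, in those of Nars2 and Mtfmt and in 8.30% of all promoters. With the 250 bases before the start alone, CARE remained in 3 of 13 cytosolic promoters. A match is a description of letters and not a binding site.

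All 5 cytosolic genes with CARE were lower at the adjusted p, and so were 7 of the 8 matched cytosolic genes without it, Eprs among them. The promoters with CARE are shown for their motif letters, which are in capitals, on the gene's strand 5′ to 3′. In Aars the capitals are, in order, an E-box, CARE on the reverse strand, GAS and a second CARE on the reverse strand, and the RefSeq start lies 698 bases from the start in the deposited table.
Aars, chr8:111033592-111033891, plus strand: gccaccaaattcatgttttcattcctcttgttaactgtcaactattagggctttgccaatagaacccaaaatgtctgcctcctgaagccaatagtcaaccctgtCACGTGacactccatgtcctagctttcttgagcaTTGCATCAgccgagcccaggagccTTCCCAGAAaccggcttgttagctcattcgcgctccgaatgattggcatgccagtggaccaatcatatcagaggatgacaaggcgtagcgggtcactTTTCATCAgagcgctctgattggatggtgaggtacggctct
In Iars and Tars both an E-box and a reverse CARE are present, the E-box first in Iars and last in Tars.
Iars, chr13:49681880-49682179, plus strand: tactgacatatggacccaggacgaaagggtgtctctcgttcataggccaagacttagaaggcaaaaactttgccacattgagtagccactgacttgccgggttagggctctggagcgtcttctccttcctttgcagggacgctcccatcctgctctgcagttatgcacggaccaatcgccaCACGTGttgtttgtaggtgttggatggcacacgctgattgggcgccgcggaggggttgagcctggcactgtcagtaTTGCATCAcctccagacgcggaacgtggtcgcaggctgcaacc
Tars, chr15:11399609-11399908, minus strand: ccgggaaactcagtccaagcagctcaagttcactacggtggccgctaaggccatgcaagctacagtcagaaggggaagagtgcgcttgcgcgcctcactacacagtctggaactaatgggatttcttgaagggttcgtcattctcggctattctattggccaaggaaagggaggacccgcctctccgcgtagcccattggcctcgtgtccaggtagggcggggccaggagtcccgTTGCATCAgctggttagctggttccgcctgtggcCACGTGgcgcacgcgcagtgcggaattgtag
Gars and Yars hold CARE alone, reversed in Gars and forward in Yars. For Yars the RefSeq start lies 143 bases from the start in the deposited table.
Gars, chr6:55037751-55038050, plus strand: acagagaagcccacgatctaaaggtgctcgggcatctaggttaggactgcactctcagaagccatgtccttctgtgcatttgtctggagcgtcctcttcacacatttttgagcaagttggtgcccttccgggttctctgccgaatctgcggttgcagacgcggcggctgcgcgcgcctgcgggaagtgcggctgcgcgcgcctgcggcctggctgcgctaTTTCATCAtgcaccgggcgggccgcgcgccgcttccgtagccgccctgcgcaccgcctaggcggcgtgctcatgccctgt
Yars, chr4:129189653-129189952, plus strand: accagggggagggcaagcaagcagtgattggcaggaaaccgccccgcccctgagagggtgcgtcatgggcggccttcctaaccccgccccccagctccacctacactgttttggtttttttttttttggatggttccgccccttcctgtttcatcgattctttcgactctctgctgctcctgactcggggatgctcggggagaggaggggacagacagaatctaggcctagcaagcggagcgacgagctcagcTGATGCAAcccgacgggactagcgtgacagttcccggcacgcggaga
The promoter of Ears2 is shown as the 1 mitochondrial promoter with an E-box, which lies after its start; no mitochondrial promoter held CARE, those of the lower genes Nars2 and Fars2 included.
Ears2, chr7:122067037-122067336, minus strand: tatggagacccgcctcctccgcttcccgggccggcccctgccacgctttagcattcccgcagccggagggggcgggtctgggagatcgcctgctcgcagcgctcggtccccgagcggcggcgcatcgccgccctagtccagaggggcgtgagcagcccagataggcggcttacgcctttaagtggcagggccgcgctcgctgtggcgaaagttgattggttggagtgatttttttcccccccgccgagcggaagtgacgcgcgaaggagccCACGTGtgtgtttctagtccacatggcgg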

How the data were processed

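The comparison used 3 immature and 4 mature sorted BMDC libraries, with groups and replicates as labelled. Per the labels, libraries were poly(A)-selected and strand-marked with dUTP. Per gene, the authors deposited counts as whole numbers, not normalized, and FPKM values scaled by gene length and library total. The submitters' processing notes name cutadapt 1.9, HISAT2 2.2.1, StringTie 2.1.6, DESeq2, edgeR and the build mm9; how the reads were counted, and whether with strand, is not given in the sources used here. The table's coordinates match GENCODE M21 (GRCm38) exactly for 24940 of 28588 shared gene IDs and 35 of the 44 members, so positions are given as GRCm38.

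The members and lists were chosen with earlier results of these data known. Most members were named. Values in every library were given for members past the criteria, the 3 largest F statistics of each role, Qars, Wars, Eprs, the GatCAB subunits and the highest mean FPKM of each role; other lists name genes past the criteria, at most 5 by F, and genes that make up a small count, chosen after their values were seen.

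The main fit ran edgeR 4.0.16 under R 4.3.3 (filterByExpr, TMM, quasi-likelihood test, no covariate), and DESeq2 1.42.0, limma 3.58.1 on log2(FPKM + 1), on log2(FPKM + 0.1), on log2(TPM + 1) and after quantile normalization, other scalings, filters, omitted libraries and a replicate block were the alternatives. A gene entered the filtered limma fits if 3 libraries reached an FPKM of 1. The tests were checked on simulated data. Pair ratios, motifs and figures were made with numpy 2.4.6, pandas 2.3.3, matplotlib 3.10.9 and scipy 1.17.1 (Python 3.11.15). Total counts of 54846746 to 67973086 per library bear on counting error only.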

Additional observations from a re-analysis of the deposited data

Results flagged for a closer look

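In 3 of the 47 values compared among the 4 mature libraries, 1 library stood apart from the rest, where chance gives about 2.4, and in all 3 it was mature replicate 3. For Ears2 it was the highest, at 39.5 CPM against 26.4 to 27.5 CPM in the other mature libraries, a gap of 0.916 of the range. For Eprs it was the lowest, at 57.2 CPM against 80.4 to 85.1 CPM, a gap of 0.832 of the range. For Iars2 it was the lowest, at 48.9 CPM against 62.0 to 64.4 CPM, a gap of 0.841 of the range. The cause was not tested.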

How the results depend on the processing

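Over 19 alternatives, 772 of 830 member values kept their call and direction, 42 were weaker, 4 stronger and 12 reversed, and 40 of 44 members never reversed; the cause was not tested. Cytosolic genes lower past the criteria were 4 with all libraries, 2 to 4 with 1 library left out, 2 without mature replicates 1 and 3, 1 with mature replicate 1 as the only mature library, 1 with limma on log2(TPM + 1), and 0 with total counts or any other limma setting. The cytosolic median log2 fold change of -0.735 was -0.758 to -0.692 with 1 library left out, -0.692 with mature replicate 1 alone, -0.695 without mature replicates 1 and 3, -0.631 with total counts, -0.625 on log2(FPKM + 0.1), -0.581 on log2(FPKM + 1) with and without a filter, -0.670 on TPM and -0.613 after quantile normalization. Mitochondrial genes past the criteria were 2 higher with mature replicate 1 alone and 0 lower in the 5 limma settings. Of these, the 3 filtered fits on FPKM tested 15 of 17 genes and left out Nars2 and Mars2, so a 0 there is no lost call; Nars2 was at -0.500 on unfiltered log2(FPKM + 1) and -0.847 on TPM. Lower at the adjusted p were 4 mitochondrial genes, 2 to 5 with 1 library left out, 2 with total counts, 1 on log2(FPKM + 0.1), 1 on log2(FPKM + 1), 2 without a filter, 2 on TPM, 2 after quantile normalization and 2 at an adjusted p under 0.01. The mitochondrial median log2 fold change of -0.094 was -0.143 to -0.020 with 1 library left out, 0.007 with total counts, 0.064 on log2(FPKM + 0.1), 0.048 on log2(FPKM + 1), 0.008 without a filter and -0.005 after quantile normalization. Of the 6 other enzymes 2 were higher at the adjusted p, 1 to 2 with 1 library left out, 3 with total counts, and 1 on TPM or at an adjusted p under 0.01. The other median log2 fold change, that of these 6, was -0.098, -0.146 to -0.074 with 1 library left out, 0.005 with total counts, -0.007 on log2(FPKM + 0.1) and -0.044 on log2(FPKM + 1) with and without a filter. Summed levels in TPM gave log2 ratios of -0.613 for cytosolic and 0.121 for mitochondrial genes, and the mitochondrial sum 0.236 with mature replicate 1 alone. Reversed values were Wars2 at 0.015 with mature replicate 1 alone, Lars2 at -0.090 without mature replicate 1 (-0.090 to 0.546 with 1 library left out), Yars2 at 0.060 with total counts, 0.064 on log2(FPKM + 0.1), 0.048 on log2(FPKM + 1) with and without a filter, 0.006 on TPM and 0.007 without immature replicate 2 (-0.079 to 0.007 with 1 library left out), and Tars2 at 0.007, 0.011, 0.008 and 0.008 in the first 4 of these settings. Over the 250 bases before the start alone, CARE was in 3.45%, the E-box in 6.02% and GAS in 7.02% of all promoters, and the E-box in 0.0% of mitochondrial ones. The median log2 fold change of all genes was 0.055, 0.159 with total counts, 0.180 with DESeq2 and 0.171 without a filter, and 4745 genes were higher and 3406 lower with total counts against 4047 and 4006.

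Libraries with the same replicate number did not deviate together (correlations 0.029, -0.001 and 0.014). Deviations from a group mean add to 0 over its libraries, so small correlations cannot show whether a number marks a shared culture or animal. With the replicate number as a block, 18 cytosolic genes were lower at the edgeR adjusted p, 1 of the 6 other enzymes was higher, and the other median log2 fold change was -0.148.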
